A study of Homo sapiens with 2 samples.

Results

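The EGFR family is described here through 8 genes, 3 receptors (EGFR, ERBB2 and ERBB3) and 5 ligands (HBEGF, TGFA, EREG, AREG and BTC). They were found on the arrays as every probe set that the platform annotation assigns to 1 of these genes and to no other gene. That gave 28 probe sets of 41091 assigned to a single gene, 17 for the receptors and 11 for the ligands, and covered 7 of the 8 genes. AREG, which encodes amphiregulin, had 0 probe sets assigned to it and was not analysed here.

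The cells were CL1-0, a long-established line from a human lung adenocarcinoma, and their RNA was hybridised to 2 Affymetrix expression arrays. One array holds cells labelled as given an antibody to the secreted glycoprotein FSTL1 for 0 h, and the other cells labelled as given it for 6 h. The labels name puromycin selection and stable transduction for the cells of both arrays, without the vector, and they describe the line as alveolar type II. With 1 array per time there is no spread between replicates and no test, and time in culture cannot be told apart from the antibody. Cells kept for 6 h without the antibody were not analysed here.

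Receptors of the EGFR family are membrane tyrosine kinases that signal as pairs. EGFR binds the ligands of the epidermal growth factor type, ERBB2 has no known ligand of its own and acts as a partner, and ERBB3 binds neuregulins and has little kinase activity of its own. The ligands are made as membrane proteins and released by metalloproteases of the ADAM family, and the receptors are known as drivers of lung adenocarcinoma. Several of the ligand genes are also known to be induced by the ERK pathway that the receptors switch on.

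Compared on the brightest probe set of each member gene, HBEGF, which encodes heparin-binding EGF-like growth factor, had the largest difference, 1.32-fold higher at 6 h. Its other measured set was nearly alike on both arrays, at 1.02-fold. EGFR, ERBB2 and ERBB3 differed by 1.04-fold or less on their brightest sets. Other sets of EGFR, close to the assumed background, pointed opposite ways, from at least 1.39-fold lower to at least 1.10-fold higher at 6 h. TGFA, EREG and BTC lay below the assumed background on both arrays. No measured member reached 1.5-fold in either direction. Of all measured genes only 0.75% were at least 1.5-fold higher and 0.182% at least 1.5-fold lower, so this is no result about the members. Because RNA of whole cultures was measured, more cells with a transcript and more transcript per cell cannot be told apart.

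Values are probe set intensities on a linear scale. The floor that stands for background was an intensity of 45.4, the 50th percentile of the values of both arrays, and is an assumption in place of detection calls. A set above it on 1 array or on both is called measured, and differences are log2 of the 6 h value minus log2 of the 0 h value, with lower values set to the floor. Of the 28 member sets 9 were measured, or 32.1%, against 56.6% of all sets assigned to 1 gene. Measured sets numbered 7 of 17 for the receptors and 2 of 11 for the ligands, and 19 member sets were below the floor on both arrays.

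Promoter stretches are shown for HBEGF, the ligand gene that was measured, and for EREG and TGFA, which were not. Each is the 250 bases before the gene's start in the RefSeq table (GRCh38.p14), read 5′ to 3′ on the gene's strand. The HBEGF window is chr5:140346604-140346853 on the minus strand, the EREG window is chr4:74364895-74365144 on the plus strand and the TGFA window, the first of its pair in the table, is chr2:70553827-70554076 on the minus strand. Capitals mark matches to any of the motifs searched on both strands, which were the GC box with the letters GGGCGG, the core promoter element with the letters TATAAA, the site of the AP-1 transcription factors with the letters TGANTCA, the cAMP response element with the letters TGACGTCA, and the CArG box of serum response factor.
HBEGF: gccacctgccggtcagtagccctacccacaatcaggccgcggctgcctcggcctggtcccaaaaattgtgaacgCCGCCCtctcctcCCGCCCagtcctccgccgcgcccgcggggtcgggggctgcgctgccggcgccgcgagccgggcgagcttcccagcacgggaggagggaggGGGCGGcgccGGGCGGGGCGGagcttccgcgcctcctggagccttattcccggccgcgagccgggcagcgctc
EREG: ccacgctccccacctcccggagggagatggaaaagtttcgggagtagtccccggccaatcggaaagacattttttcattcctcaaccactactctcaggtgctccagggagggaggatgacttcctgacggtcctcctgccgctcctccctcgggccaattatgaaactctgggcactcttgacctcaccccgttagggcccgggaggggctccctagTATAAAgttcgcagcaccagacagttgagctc
TGFA: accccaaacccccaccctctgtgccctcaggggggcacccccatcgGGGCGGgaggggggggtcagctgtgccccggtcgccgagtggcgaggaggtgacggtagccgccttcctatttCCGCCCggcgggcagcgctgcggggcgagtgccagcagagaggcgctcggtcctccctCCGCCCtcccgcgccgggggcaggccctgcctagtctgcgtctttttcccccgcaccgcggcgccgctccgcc
The HBEGF window held 5 matches to GGGCGG, with the pair nearest to the start overlapping by a base, and had a G and C content of 76.4%. The EREG window held 1 match to TATAAA, 32 to 27 bases before the start, and had a G and C content of 58%. The printed TGFA window held 3 matches to GGGCGG, with a G and C content of 75.6%, and so resembled that of HBEGF although TGFA was not measured. That likeness rests on the window chosen. The second TGFA window, chr2:70553447-70553696, held no match to any of the motifs and had a G and C content of 64%. The window of BTC, also not measured, held no match. With the printed TGFA window, these windows do not separate the measured ligand from the others. Over all 35116 windows of the same length in the table, 42.6% held GGGCGG, 10.7% TATAAA, 6.57% TGANTCA, 1.65% TGACGTCA and 1.16% a CArG box. None of the 3 printed windows held TGANTCA, TGACGTCA or a CArG box. A match is a description of these letters and not of binding.

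EGFR had 9 probe sets, of which 5 were measured and 2 lay above the floor on both arrays. Its brightest set, 211550_at, went from 65.9 at 0 h to 68.3 at 6 h, a log2 difference of 0.05. The set 1565483_at went from 58.9 to 59.4, a difference of 0.01. On these sets both arrays read nearly alike, at 1.3 to 1.5 times the floor. The other 3 measured sets crossed the floor and have only bounds. The set 210984_x_at went from 62.9 to 44.3 and so was at least 1.39-fold lower at 6 h. The set 201984_s_at, whose target accession is a RefSeq transcript of EGFR, went from 40.5 to 49.9 and was at least 1.10-fold higher. The set 211551_at went from 47.6 to 41.3 and was at least 1.05-fold lower. The sets of EGFR therefore pointed opposite ways, with differences of -0.47 to 0.14, and all of them lay close to the floor. The remaining 4 sets of EGFR were below the floor on both arrays, with values between 28.5 (224999_at at 0 h) and 44.0 (1565484_x_at at 6 h). Of all 12670 measured genes, 75.3% differed by at least as much as EGFR on its brightest set.

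ERBB2 had 1 measured set of 3. The set 216836_s_at read 660.3 at 0 h and 669.8 at 6 h, 14.5 and 14.8 times the floor, and its log2 difference was 0.02. Both arrays gave ERBB2 about the same value on this set, and 89.5% of measured genes differed by as much or more. The sign of this small difference depends on the scaling, since it was -0.00068 after centring on the median, -0.03 after quantile normalization and -0.03 after loess scaling. The other 2 sets of ERBB2 were below the floor, at 40.7 and 36.9 (234354_x_at) and at 18.2 and 18.3 (210930_s_at). Levels of different probe sets depend on their probes and were not compared between genes.

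ERBB3 had 1 measured set of 5. The set 226213_at read 66.6 on both arrays, the same deposited value to its last digit, so its difference was 0. Of 54613 probe sets 116 had identical values on both arrays. The other 4 sets of ERBB3 lay below the floor, and the one built on a RefSeq transcript of the gene, 202454_s_at, read 28.9 at 0 h and 34.1 at 6 h. The set 1563253_s_at read 37.7 and 27.1. Neither pair has a direction here, because values below the floor have no order.

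**Figure D1:**
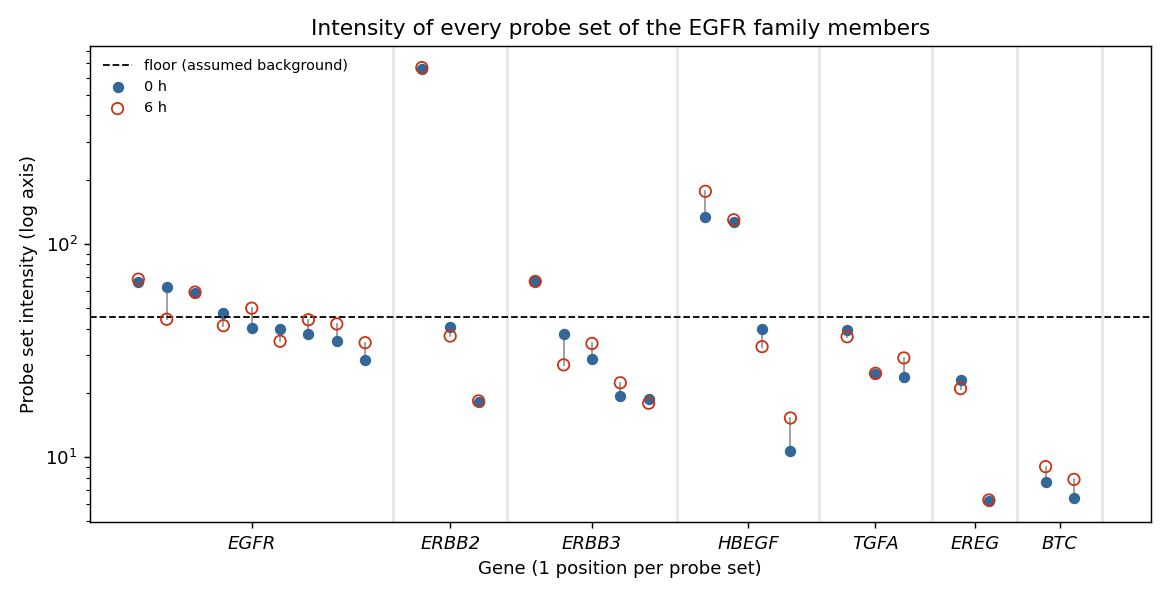
Intensity (log axis) of each of the 28 probe sets of the 7 genes, 0 h as filled points and 6 h as open points, with the floor of 45.4 dashed; levels of different sets are not comparable. Of all the sets, 1 of ERBB2 and 2 of HBEGF stand well above the floor, and all sets of TGFA, EREG and BTC lie below it.

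HBEGF, whose product binds EGFR and ERBB4, had 2 of 4 sets above the floor on both arrays. The set 203821_at, built on a RefSeq transcript of the gene, went from 133.4 to 176.2, a log2 difference of 0.40. The set 38037_at went from 127.1 to 129.5, a difference of 0.03. The 6 h array was therefore higher on 203821_at. The difference of 38037_at was close to the median over all measured genes (0.017), so that set has no clear direction. For scale, probe sets of 1 gene scattered with an SD of 0.16 in their log2 differences over 6123 genes; sets are not replicates. Of 12670 measured genes 396, or 3.13%, had a difference at least as high as that of 203821_at, and 4.96% of measured probe sets differed by as much in either direction. With the median of both sets the difference of HBEGF was 0.21. The remaining sets were below the floor, 244857_at at 39.7 and 32.9 and 222076_at at 10.6 and 15.3.

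TGFA, which encodes transforming growth factor alpha, another ligand of EGFR, was below the floor on all 3 sets. They read 39.2 and 36.7 (205015_s_at), 23.8 and 29.2 (205016_at) and 24.6 and 24.7 (211258_s_at) at 0 h and 6 h. EREG encodes epiregulin, a ligand of EGFR and ERBB4. Its sets read 6.25 and 6.29 (205767_at) and 23.0 and 20.9 (1569583_at). BTC encodes betacellulin, which also binds EGFR and ERBB4, and its sets read 7.64 and 9.02 (207326_at) and 6.42 and 7.86 (241412_at). These 3 ligand genes have no direction here. In the RefSeq table EPGN, EREG, AREG and BTC follow one another on chromosome 4 with no other protein-coding gene between them.

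Receptors and ligands were set side by side by their measured genes. The 3 receptor genes had a median log2 difference of 0.02 (-0.00068 after centring on the median), with a range of 0 to 0.05, and the median over all measured genes was 0.017. The only measured ligand gene, HBEGF, was at 0.40, so the ligand value rests on that gene and the difference of 0.38 between ligands and receptors on its brightest set. It was 0.20 when a gene was given the median of its sets and 0.13 under a floor at the 40th percentile, where TGFA was also measured. With no floor and no filter, which brings in TGFA, EREG and BTC, it was -0.013. No difference between ligands and receptors as groups is therefore shown. Of the 4 measured members 0 were at least 1.5-fold higher and 0 at least 1.5-fold lower, where 0.75% and 0.182% of all measured genes were. A count of 0 in 4 genes is near these shares and is no result about the members.

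**Figure D2:**
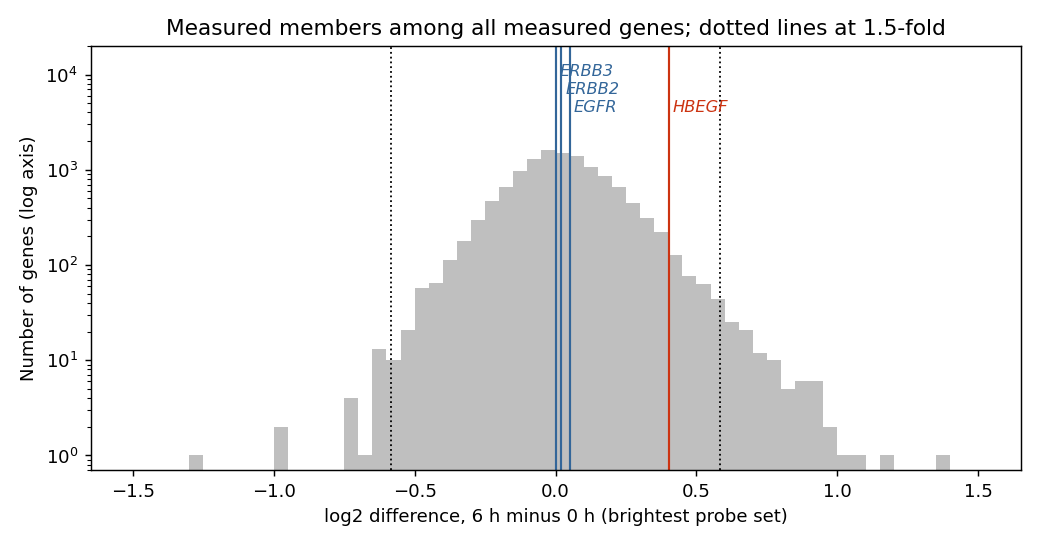
Histogram of the log2 difference of 12670 measured genes (number of genes on a log axis) with the 4 measured members as vertical lines and 1.5-fold as dotted lines. EGFR (0.05), ERBB2 (0.02) and ERBB3 (0) lie at the centre, and HBEGF (0.40) lies on the upper side inside the dotted line.

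The rest of the receptor and ligand family held values of its own. ERBB4, the neuregulin receptor, had 2 measured sets that went opposite ways, 233498_at from 958.7 to 861.2 (-0.15) and 214053_at from 426.5 to 584.3 (0.45). Neither is built on a RefSeq transcript of the gene. The set that is, 206794_at, was below the floor at 31.3 and 27.2, as was 233494_at. No direction can be given for ERBB4. NRG1 encodes neuregulin 1, the main ligand of ERBB3 and ERBB4. Its set 206343_s_at went from 819.0 to 1147 at 6 h, a 1.40-fold difference. Its other measured sets, all nearer to the floor, differed by 0.18 (206237_s_at), 0.05 (208230_s_at) and -0.29 (208241_at). NRG1 was thus higher on the set that stood 18.0 and 25.3 times above the floor, and the sets near the floor did not go one way. NRG2 was at 60.8 and 63.2 on its only measured set. EGF, NRG3 and NRG4 were below the floor on both arrays, between 6.59 for NRG4 and 9.38 for NRG3, and EPGN had 0 probe sets assigned to it.

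The other genes of the pathway, taken from lists by role, are given as background to the members. Of 72 such genes 59 were measured, 47 of them higher and 12 lower on their brightest set, with a median of 0.16. The share higher among all measured genes was 54.3%, with a median of 0.017. Fewer of the 59 were higher after quantile normalization, as the lists below show, and so were fewer of all genes (46.4%). At least 1.5-fold higher was 1 of the 59 (1.69%, against 0.75% of all measured genes), and 0 were at least 1.5-fold lower (0.182% of all). The 1 gene was ETV5, an ETS transcription factor of the ERK output, at 202.1 and 381.5, and its call rests on its _s_at sets. ETV5 was at 0.50 with the median of its sets and at 0.14 once sets ending in _x_at and _s_at were left out. The measured set then left, 230102_at, crossed the floor (28.4 and 50.2). Its 0.14 is therefore only a lower bound, and the 0.50 also rests on that bound. Without _x_at and _s_at sets the 1 gene past 1.5-fold was DUSP6, an ERK phosphatase, at 0.61 and named after its values were seen. These counts describe the lists, which were chosen with earlier results of these arrays known and whose genes are not replicates.

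Genes listed under ligand shedding had a median of 0.08 over 7 measured genes, of which 5 were higher and 2 lower. Over all measured genes 54.3% were higher. The median was 0.015 after quantile normalization (4 higher, 3 lower), where 46.4% of all genes were higher. Without _x_at and _s_at sets it was 0.16 (5 of 5 higher, against 55.3% of all genes). ADAM17, the main protease that frees HBEGF, TGFA and EREG, went from 855.1 to 971.6 (0.18), and ADAM10, the main protease that frees BTC, from 1851 to 2119 (0.20). ADAM9, a further metalloprotease, went from 3335 to 3720 (0.16), while its other measured set differed by -0.08. TIMP3, an inhibitor of ADAM17, went from 133.7 to 98.1 on its brightest set (-0.45), but its other measured set differed by 0.05.

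All 11 genes listed under receptor restraint were higher at 6 h on their brightest set, with a median of 0.27. Of all measured genes 54.3% were higher, with a median of 0.017. This list was chosen with earlier results of these arrays known, so the count is no independent evidence. SOCS5 (0.02) and PTPN2 (0.03) differed least. After quantile normalization or loess 9 of the 11 were higher, with medians of 0.23 and 0.24, where 46.4% and 48.3% of all genes were. None of the 11 reached 1.5-fold, which is near the shares over all measured genes (0.75% higher, 0.182% lower). RNF41, a ubiquitin ligase for ERBB3, went from 207.1 to 280.8, and its 3 sets differed by 0.15 to 0.54. LRIG3, listed by its family of membrane proteins that act on the receptors, went from 76.1 to 102.5. Whether it restrains them was not tested. The gene for SOCS4, which promotes EGFR degradation, went from 594.6 to 736.7. CBLB, a ubiquitin ligase for EGFR, went from 219.9 to 271.1. Its other measured set crossed the floor (36.3 and 47.3), so its difference of 0.06 is only a lower bound. PTPN2, a phosphatase, had sets on both sides, from -0.25 to 0.07.

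Adaptors and kinases downstream had a median of 0.09, over 14 measured genes of which 12 were higher and 2 lower, where 54.3% of all measured genes were higher. After quantile normalization or loess 10 were higher and 4 lower, with medians of 0.045 and 0.052. The shares of all genes higher were then 46.4% and 48.3%. The exchange factor SOS2 went from 365.9 to 472.3 (0.37), with its sets between -0.16 and 0.37, and SOS1 from 972.2 to 1150 (0.24). STAT3, a transcription factor that the receptors activate, went from 681.4 to 800.7 (0.23). The phospholipase PLCG1 went from 450.6 to 511.2 (0.18). Genes of receptor traffic and stability were split, 5 higher and 5 lower, with a median of 0.10 that was -0.0049 once sets ending in _x_at and _s_at were left out. ERBIN, a scaffold that binds ERBB2, went from 1282 to 1690 (0.40), and its second measured set differed by 0.46. RAB7A, of late endosomes, differed by 0.26 on its brightest set and by -0.19 on another. The sorting proteins STAM (0.21) and EPS15 (0.21) were also higher.

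Genes that the EGFR to ERK route switches on had a median of 0.24, over 14 measured genes of which 12 were higher and 2 lower. Among all measured genes 54.3% were higher. After quantile normalization 10 were higher and 4 lower, where 46.4% of all genes were higher. Without _x_at and _s_at sets the median was 0.14, which is the lower bound of ETV5, with 7 higher and 2 lower. Of all genes 55.3% were then higher. This list includes genes picked with earlier results of these arrays known, so their direction is no independent evidence. After ETV5 came EGR1, an immediate early transcription factor, with its brightest set at 379.5 and 542.8 and its 3 sets between 0.16 and 0.67. The ERK feedback inhibitor SPRY4 went from 155.3 to 213.0. PHLDA1, a further target, went the other way, from 87.8 to 65.8.

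**Figure D3:**
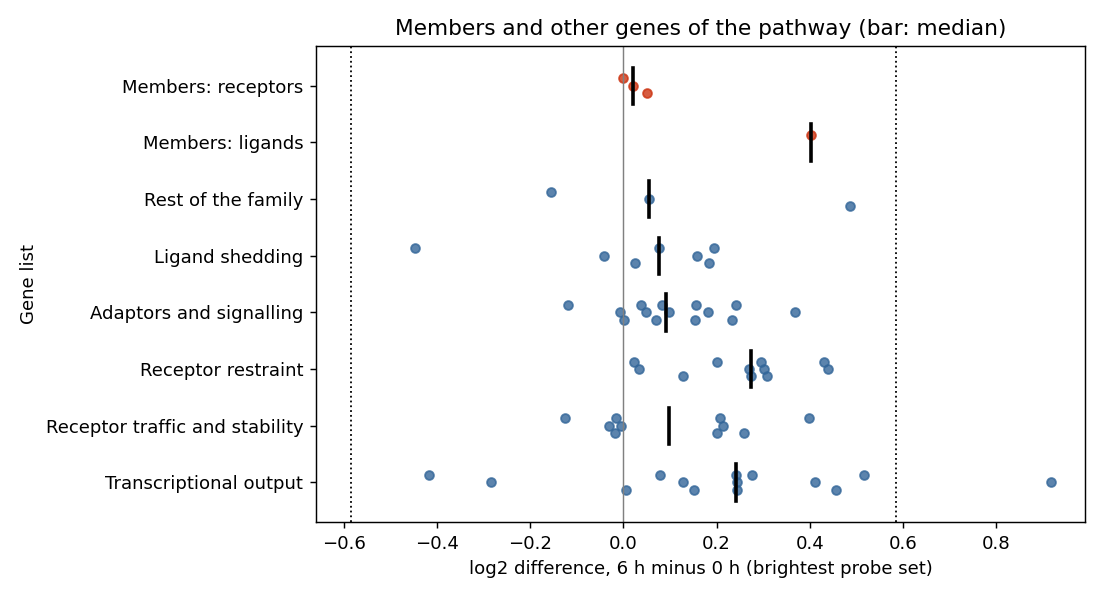
log2 difference of each measured gene on its brightest probe set, by list, with members in red, the other genes of the pathway in blue, black bars at the medians and dotted lines at 1.5-fold. The 11 genes of receptor restraint all lie above 0, the 3 receptors lie at or near 0, and ETV5 is the 1 gene past 1.5-fold.

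The processing moved the receptors little and the ligand summary more. Several settings could not move the receptors, since they leave a set above the floor unchanged. The difference of EGFR lay between 0.01 and 0.06 over the settings in which it was measured, that of ERBB3 between -0.02 and 0.009, and that of HBEGF between 0.21 and 0.40. NRG1 differed by -0.29 once probe sets ending in _x_at and _s_at were left out, since that removes its brightest set, and by 0.11 with the median of its sets.

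**Figure D4:**
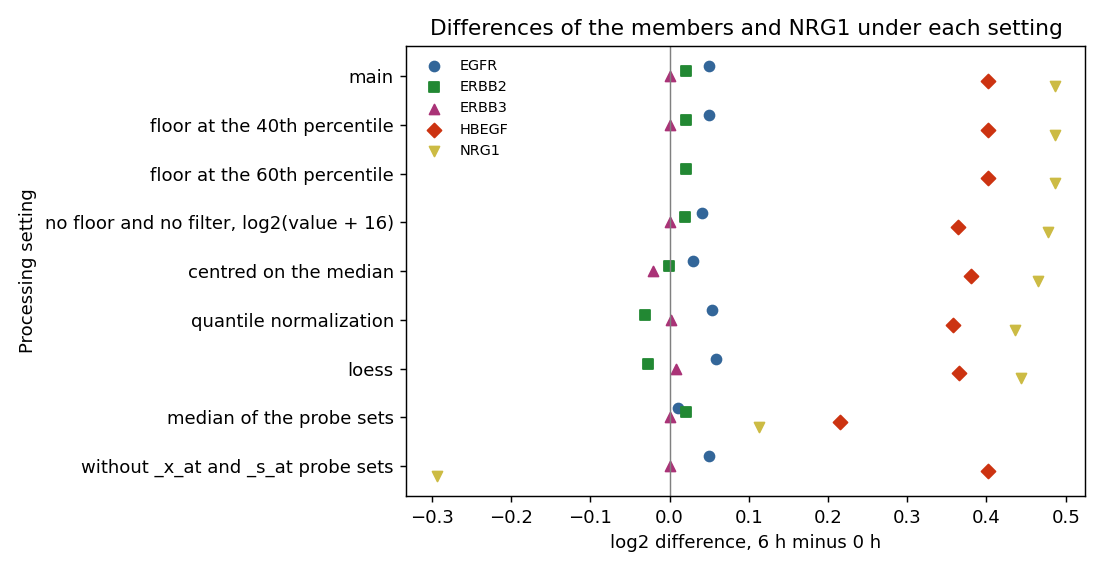
log2 difference of EGFR, ERBB2, ERBB3, HBEGF and NRG1 (x axis) under each processing setting (y axis); a gene has no point where it was not measured. HBEGF stays between 0.21 and 0.40 and the receptors stay near 0, while NRG1 moves from 0.49 to -0.29.

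The labelled cell type was checked against markers. Of the 10 alveolar type II markers 8 had probe sets and 5 were measured. Of these SFTPB (103.8 and 132.7), NKX2-1 (56.7 and 68.6), ABCA3 (173.4 and 207.9) and NAPSA (51.1 and 61.0) were higher at 6 h on their brightest set. SFTPC (113.3 and 92.3) was lower, and the median was 0.26. The type II genes SFTPD, LAMP3 and SLC34A2 were below the floor on both arrays. Measured sets went both ways for SFTPB (-0.39 to 0.35), NKX2-1 (-0.18 to 0.28) and SFTPC (-0.30 to 0.02). Of 6 epithelial genes EPCAM, CDH1 and KRT19 were below the floor on both arrays, while KRT18 read 148.2 and 120.9, KRT7 57.7 and 49.8 and KRT8 48.1 and 52.4. Of the leukocyte, fibroblast and endothelial markers 1 of 5, 2 of 5 and 1 of 5 genes were measured. On their brightest set all 4 were lower at 6 h. They were CD79A at 135.5 and 118.0, COL1A1 at 230.1 and 179.4, DCN at 50.5 and 41.1, and PECAM1 at 73.5 and 54.5, while PTPRC, COL1A2 and CDH5 were below the floor. The 2 measured sets of COL1A1 went opposite ways, at -0.36 and 0.94, so it has no direction here. DCN was above the floor at 0 h only. Every list had measured genes as well as genes below the floor, so these values do not settle the labelled cell type. The summed intensity over all sets of each list at 0 h and 6 h was 1009 and 1010 for type II cells, 393.3 and 357.9 for epithelium, 284.7 and 260.3 for leukocytes, 707.9 and 718.9 for fibroblasts and 288.4 and 259.5 for endothelium. The part of these markers in the values above was not tested. Median intensity over all probe sets was 45.8 and 44.9.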

How the data were processed

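The authors deposited probe set intensity on a linear scale for 1 array per time, and the summarisation was MAS5 per the submitters' processing notes. Its settings are not given in the sources used here. This method subtracts local background, so dim values are noisy, and whether the arrays were scaled to a common mean is not stated. Array control sets were left out. Symbols came from the platform annotation, updated by Entrez identifier through a RefSeq table, and sets assigned to several genes were not used. Values under the 50th percentile of both arrays were set to that floor before log2, and a gene was represented by its measured set with the highest mean. Each group has 1 array, so no test was run and the number of arrays limits the precision. Members, lists and the rule for named genes (all members, all other family genes, and up to 4 genes per list with the largest absolute difference) were chosen with earlier results of these data known. PTPN2, SOCS5 and RAB7A's second set were added after their values were seen, as were the markers named. Each result was recomputed with the floor moved to the 40th or to the 60th percentile, without a floor on log2(value + 16), with centring, quantile or loess scaling (span 0.3), the median of a gene's sets, and leaving out _x_at and _s_at sets. The steps were tested on simulated data, with larger changes and in genes brighter than most measured members. That simulation therefore says nothing of dim genes or of small differences. Python 3.11.15, pandas 2.3.3 and statsmodels 0.14.6 were used.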

Additional observations from a re-analysis of the deposited data

How the results depend on the processing

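The difference between ligands and receptors (0.38) depended on which ligand genes were measured. Under a floor at the 40th percentile the ligand median was 0.15 and the difference 0.13. Without floor or filter they were 0.0068 and -0.013, and when a gene was given the median of its sets they were 0.21 and 0.20. HBEGF itself was at 0.21 with the median of its sets. The count of other pathway genes at least 1.5-fold higher was 1, and 0 with the median of the sets. The gene was ETV5, except without _x_at and _s_at sets, where it was DUSP6. Of the other 77 values for members, medians and counts, all moved by less than the scatter between probe sets (0.16) or, for counts, by less than 1.5-fold. For the receptors this shows little. Their differences of 0 to 0.05 are smaller than that scatter, so a change of sign would not count as a move. ERBB2 and ERBB3 had 1 measured set each, and moving the floor leaves a set above it unchanged. Under a floor at the 60th percentile EGFR and ERBB3 were not measured, and without _x_at and _s_at sets ERBB2 was not. Over the settings, 0.399% to 0.891% of all genes were at least 1.5-fold higher and 0.0556% to 0.283% at least 1.5-fold lower. No paired analysis was possible because each time has 1 array. The floor limits what can be said of dim genes, and the scatter between sets of a gene is no replicate error.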
